A study of Mus musculus with 14 samples.

Results

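The glycolysis and hypoxia response genes described here are 34 genes of the mouse count table, taken by symbol from its 25017 gene rows. They cover the glucose transporters, the enzymes from hexokinase to pyruvate kinase, the genes that handle pyruvate and lactate, regulators of glycolytic flux, and the hypoxia-inducible factor HIF-1 alpha with its hydroxylases and other genes known to respond to low oxygen. All 34 had enough counts to be tested, among 13780 genes tested in all. The table holds bulk RNA sequencing of CD4+ T cells of donor origin, recovered from mice with or without chronic graft-versus-host disease (cGVHD), in which donor T cells attack the tissues of a transplant recipient. BALB/c recipients received T-cell-depleted bone marrow from B6 (C57BL/6) donors, and donor splenocytes were added for cGVHD mice and left out for GVHD-free mice. At day 30 the cells were separated by their surface level of PSGL1 (gene Selplg), a ligand for selectins, and the low and high fractions are called PSGL1lo and PSGL1hi. The 14 libraries form 7 groups of 2. The cGVHD groups are lung PSGL1lo, lung PSGL1hi, liver PSGL1lo, liver PSGL1hi, spleen PSGL1lo and spleen PSGL1hi, and the GVHD-free group is spleen PSGL1lo. The labels do not give the age or sex of the mice, and do not say whether the libraries of a group came from separate mice or whether cells of several mice were pooled. The p-values therefore rest on how far the libraries of a group differ, and that difference may be technical.

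Glycolysis splits glucose into pyruvate in the cytosol and yields ATP without oxygen, and lactate dehydrogenase then turns pyruvate into lactate, which leaves the cell through monocarboxylate transporters. Activated and dividing T cells are known for taking up more glucose and for running this pathway even where oxygen is present, whereas resting and many memory T cells rely more on mitochondrial respiration. HIF-1 alpha is a transcription factor that prolyl hydroxylases, encoded by the Egln genes, mark for degradation while oxygen is present. Where it is stable, it pairs with a partner protein and binds the core letters ACGTG or GCGTG near many glycolytic genes. Its abundance is set largely at the protein level, which RNA counts do not measure.

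The DNA just upstream of some of these genes is shown because the HIF core letters are a sequence feature that many of them share. Genes known to respond to low oxygen were among those chosen, so counts of these letters are not independent of the choice. RefSeq promoter windows (GRCm38.p6, 250 bases before to 50 after each annotated start) were matched for 32 of the 34 genes. Slc2a3 and Bnip3l are named only. The letters ACGTG stood on either strand, in any window of the gene, for 23 of the 32 genes (71.9%), against 5886 of all 27025 genes with a window (21.8%). GCGTG stood in a window of 20 of the 32 genes (62.5%), against 9500 of all genes (35.2%). A gene with several windows has more room for a match, and the number of windows per gene was not matched. Counted over single windows, ACGTG was in 19.6% of all promoter windows, GCGTG in 32.4% and CACGTG, which holds ACGTG on both strands, in 7.15%. For repeated matches each strand was counted separately, so that a single CACGTG counted as 2. On that count, 8.21% of windows held 2 or more matches of ACGTG and 1.73% held 3 or more. The 250 bases before the start are printed 5′ to 3′ on the gene's own strand for 4 genes with such places and for Tpi1, which has none in this window. They lie at chr7:46845554-46845803 (plus strand) for Ldha, chr6:82774455-82774704 (minus strand) for Hk2, chr11:120948817-120949066 (plus strand) for Slc16a3, chrX:106186850-106187099 (plus strand) for Pgk1 and chr6:124814159-124814408 (minus strand) for Tpi1. Capitals mark ACGTG, its reverse CACGT and their overlap CACGTG.
Ldha: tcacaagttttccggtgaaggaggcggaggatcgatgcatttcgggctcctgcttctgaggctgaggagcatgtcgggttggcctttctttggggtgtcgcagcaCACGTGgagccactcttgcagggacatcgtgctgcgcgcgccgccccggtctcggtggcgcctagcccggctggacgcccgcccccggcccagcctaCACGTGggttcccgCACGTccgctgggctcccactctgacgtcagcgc
Hk2: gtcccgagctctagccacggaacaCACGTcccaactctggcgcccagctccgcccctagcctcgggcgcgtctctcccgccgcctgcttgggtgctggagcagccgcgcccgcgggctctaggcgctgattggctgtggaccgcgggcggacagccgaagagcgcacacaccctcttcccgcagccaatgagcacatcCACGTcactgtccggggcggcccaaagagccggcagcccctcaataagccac
Slc16a3: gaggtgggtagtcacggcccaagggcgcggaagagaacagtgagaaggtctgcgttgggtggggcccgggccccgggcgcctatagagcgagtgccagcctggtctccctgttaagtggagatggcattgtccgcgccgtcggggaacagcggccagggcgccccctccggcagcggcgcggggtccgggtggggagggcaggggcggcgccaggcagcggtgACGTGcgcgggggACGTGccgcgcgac
Pgk1: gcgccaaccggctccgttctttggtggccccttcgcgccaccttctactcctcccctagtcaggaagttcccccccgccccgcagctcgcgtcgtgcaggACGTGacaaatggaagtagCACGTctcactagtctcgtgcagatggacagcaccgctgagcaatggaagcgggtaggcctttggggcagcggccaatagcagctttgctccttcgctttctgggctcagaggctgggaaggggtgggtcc
Tpi1: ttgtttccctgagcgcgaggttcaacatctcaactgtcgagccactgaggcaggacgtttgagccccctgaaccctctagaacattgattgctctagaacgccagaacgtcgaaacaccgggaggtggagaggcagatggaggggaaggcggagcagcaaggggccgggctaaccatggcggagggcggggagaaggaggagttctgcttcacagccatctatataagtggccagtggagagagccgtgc
In the printed stretches overlapping matches count as a single place, unlike in the window counts above. Ldha holds 3 places, starting 145, 48 and 34 bases before the start used here. The window of its other annotated start, chr7:46846832-46847131, holds 0 matches of ACGTG. Hk2 holds 2, at 226 and 52 bases, Slc16a3 holds 2, at 27 and 14 bases, and Pgk1 holds 2, at 150 and 131 bases. A match of letters is a description and not a binding site, and nothing on binding was measured.

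The libraries held 13222005 to 33532595 counts, so that 3 counts, the limit that a count of 0 allows, equal 0.0859 to 0.223 CPM, the depth-scaled count used throughout. These limits cover counting error only. CPM were corrected by TMM factors for library composition and say nothing about levels between genes of different length. The 34 genes took 0.427% to 0.58% of each library's counts. All 10 markers of CD4 T cells were detected in every group, with a summed level of 5700 to 9370 CPM. Markers of other cells were present at lower summed levels that differed between groups. The library numbers in the labels fall into one run for spleen and another for both other organs, so an effect of organ and one of library run cannot be told apart wherever spleen is set against another organ. Liver PSGL1lo replicate 1 also carries an S number outside the run held by the other liver and lung libraries. The labels do not say what that number means. Of the 34 genes, 10 have at least 1 pseudogene with a stretch of 100 or more bases at 97% or more identity in GENCODE M21 transcripts. Gapdh has 53 of these, and its row held only 151 to 602 counts per library. No label or header says how reads that match several places were counted, and the part of the copies in the values of Gpi1, Tpi1, Gapdh, Pgk1, Pgam1, Eno1, Pkm, Ldha, Bnip3 and Higd1a was not tested. Hk1, Pfkm, Pfkp, Aldoa, Tpi1, Gapdh and Ankrd37 overlap an exon of a counted gene on the opposite strand, and without a stated strand setting the reads of both cannot be told apart.

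Summed over the 34 genes, expression was highest in cGVHD spleen PSGL1hi cells, at 5743 and 5764 CPM. It was 4495 and 4499 CPM in lung PSGL1lo, 5391 and 5466 CPM in lung PSGL1hi, 4349 and 4141 CPM in liver PSGL1lo, and 4545 and 4593 CPM in liver PSGL1hi cells. Spleen PSGL1lo cells had 5192 and 5047 CPM in cGVHD mice, against 4379 and 4336 CPM in GVHD-free mice. In each organ both PSGL1lo libraries lay below both PSGL1hi libraries. The sum is weighted towards the most abundant genes, chiefly Hif1a. Group means of Hif1a ran from 619 CPM in liver PSGL1lo to 1340 CPM in lung PSGL1hi cells, with 1280 CPM in cGVHD spleen PSGL1lo cells. Spleen PSGL1hi was the group with the highest mean for 12 of the genes and lung PSGL1hi for 7, and lung PSGL1lo had the lowest mean for 9 and the highest for 0. The span from the lowest to the highest group mean ran from 1.5-fold for Higd1a to 10.9-fold for Eno2, and the genes did not move as one block. Eno2, Pfkfb4 and Egln3 ran opposite to the transporters and Hk2 across the fractions, as the heat map shows.

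**Figure D1:**
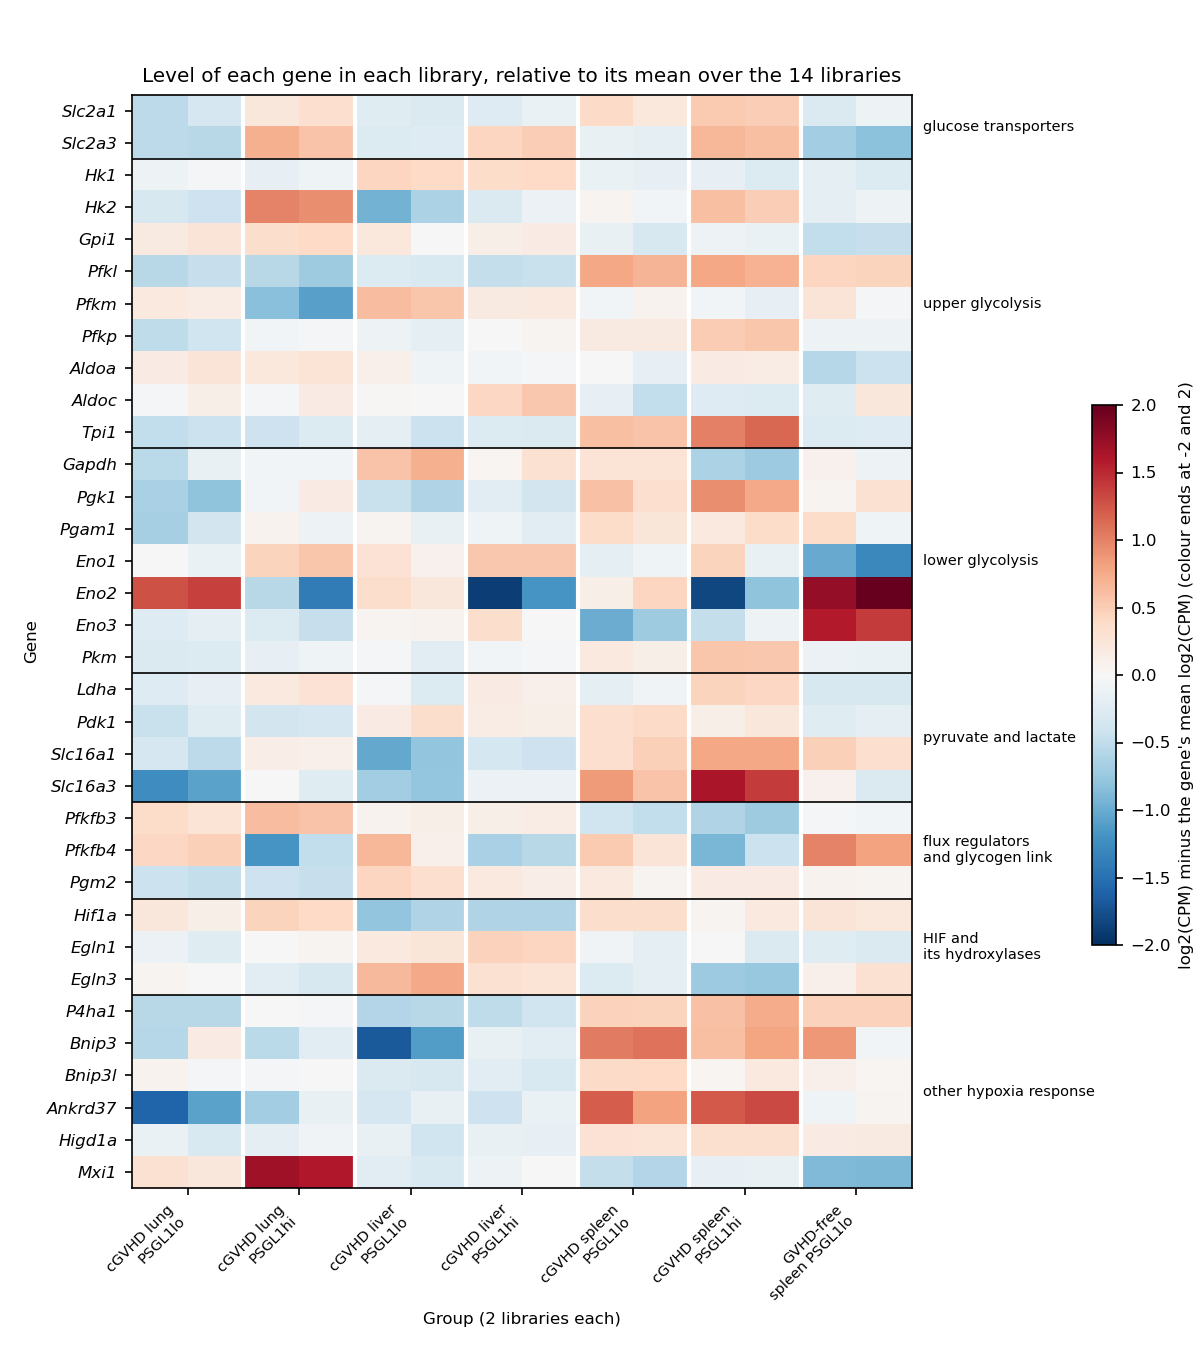
Level of each of the 34 genes (rows, by role) in each of the 14 libraries (columns, 2 per group), as log2 CPM minus the gene's mean log2 CPM over the 14 libraries, with red above and blue below the mean. Slc2a3, Hk2, Ldha and Slc16a3 are redder in the PSGL1hi than in the PSGL1lo columns of each organ, and Eno2 and Pfkfb4 are bluer there.

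In spleen PSGL1lo cells, both glucose transporters, the lactate exporter Slc16a3 and some enzymes of glycolysis were higher in cGVHD than in GVHD-free mice, with Tpi1 and Eno1 the farthest among the enzymes, and the enolases Eno2 and Eno3 were lower. Of the enzymes of glycolysis, 5 of 9 in the upper and 2 of 7 in the lower part rose, and the 2 enolases fell. Of the 34 genes, 15 rose and 4 fell, by the quasi-likelihood test of edgeR (p-values adjusted by Benjamini-Hochberg over all 13780 genes). Over all genes tested, 14.7% were called higher and 12.8% lower. The median log2 change was 0.22 over the 34 genes and 0.01 over all genes. Every adjusted p given for a gene here is from this test, and each log2 change stands with its standard error (SE) from the same fit. The comparison lies within one library series, and the groups differ both in disease and in the donor splenocytes that were given. In bulk RNA, fewer cells of a type and less RNA per cell cannot be told apart, and this holds for every comparison here.

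Both glucose transporters rose in cGVHD spleen. Slc2a1, the basal transporter GLUT1, had 79.3 and 70.4 CPM in cGVHD, against 50.1 and 56.7 CPM in GVHD-free cells (log2 change 0.49 ± 0.09, adjusted p = 0.00041). Slc2a3, the high-affinity transporter GLUT3, averaged 137 ± 2.2 CPM in cGVHD and 91.2 ± 6.0 CPM in GVHD-free cells (SD, n = 2 libraries each; log2 change 0.59 ± 0.08, adjusted p = 2.8e-06). Neither gene's libraries overlapped between the groups.

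Of the 9 enzymes of upper glycolysis, 5 rose and 4 did not pass the test. Tpi1, which interconverts the triose phosphates so that all of the sugar can be used, had 156 and 153 CPM in cGVHD, against 85.6 and 86.7 CPM in GVHD-free cells. Its log2 change of 0.84 ± 0.09 (adjusted p = 1.1e-07) was the largest of the 9. Aldoa, the aldolase that makes the trioses, rose by 0.42 ± 0.08, and Pfkl, Pfkp and Gpi1 rose by 0.29 ± 0.08, 0.28 ± 0.07 and 0.25 ± 0.08 on the log2 scale. The Pfkl call was lost without GVHD-free replicate 1 (adjusted p = 0.062) or cGVHD replicate 1 (adjusted p = 0.074), and the Gpi1 call without GVHD-free replicate 1 (adjusted p = 0.13), GVHD-free replicate 2 (adjusted p = 0.061) or cGVHD replicate 1 (adjusted p = 0.25). Hk2, the inducible hexokinase that traps glucose in the cell, had 34.3 and 31.8 CPM in cGVHD, against 29.2 and 31.0 CPM in GVHD-free cells, and its difference of 0.13 ± 0.11 did not pass the test (adjusted p = 0.43). Hk1, the constitutive hexokinase, did not pass it either (0.09 ± 0.07, adjusted p = 0.35), so the calls in this branch lie in the transporters and in enzymes after hexokinase.

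Lower glycolysis split by enolase isoform. Eno1, the ubiquitous alpha-enolase, had 59.9 and 65.2 CPM in cGVHD, against 34.1 and 28.2 CPM in GVHD-free cells (log2 change 1.0 ± 0.14, adjusted p = 1.3e-05). Eno3, the beta-enolase known from muscle, had 2.91 and 3.53 CPM in cGVHD, against 17.4 and 15.3 CPM in GVHD-free cells (−2.34 ± 0.21, adjusted p = 1.8e-08). Eno2, the gamma-enolase known from neurons, had 0.894 and 1.11 CPM in cGVHD, against 2.80 and 3.58 CPM in GVHD-free cells (−1.66 ± 0.45, adjusted p = 0.0078). Eno1 was thus higher, and Eno2 and Eno3 were lower, with no overlap between the groups. The Eno2 call was lost without cGVHD replicate 1 (adjusted p = 0.079) or GVHD-free replicate 2 (adjusted p = 0.076). Eno1b, a near-identical copy of Eno1 with a row of its own, had 3.65 and 2.55 CPM in cGVHD, against 6.95 and 8.74 CPM in GVHD-free cells. With the counts of both rows summed, the log2 change was 0.75 (adjusted p = 0.00017). Pkm, the pyruvate kinase gene, rose by 0.29 ± 0.07. Gapdh had 13.9 and 13.9 CPM in cGVHD, against 12.2 and 10.8 CPM in GVHD-free cells, and did not pass the test (0.27 ± 0.16, adjusted p = 0.24).

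Genes for the fate of pyruvate moved upwards in 3 of 4 cases. Slc16a3, the lactate exporter MCT4, had 24.7 and 20.5 CPM in cGVHD, against 14.6 and 11.3 CPM in GVHD-free cells (log2 change 0.80 ± 0.15, adjusted p = 0.00033). Pdk1, the kinase that switches off pyruvate dehydrogenase, rose by 0.58 ± 0.09 (adjusted p = 4.4e-05). Ldha, which makes lactate, had 432 and 466 CPM in cGVHD, against 390 and 391 CPM in GVHD-free cells. Its change of 0.20 ± 0.07 lay just inside the threshold (adjusted p = 0.05 after rounding) and the call was lost with RLE size factors (adjusted p = 0.062), and without cGVHD replicate 2 (adjusted p = 0.32), GVHD-free replicate 1 (adjusted p = 0.18) or GVHD-free replicate 2 (adjusted p = 0.15). Pfkfb3, which makes the activator of phosphofructokinase, fell by 0.41 ± 0.08 on the log2 scale (adjusted p = 0.00045).

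In the oxygen-sensing group, Hif1a itself did not pass the test, with 1280 and 1270 CPM in cGVHD, against 1190 and 1160 CPM in GVHD-free cells (0.12 ± 0.07, adjusted p = 0.23). Egln3, the HIF prolyl hydroxylase PHD3, fell by 0.43 ± 0.11 (adjusted p = 0.0044), and this call did not hold without cGVHD replicate 1 (adjusted p = 0.055) or GVHD-free replicate 2 (adjusted p = 0.091). Of the 6 other hypoxia response genes, 3 rose. Ankrd37, a small ankyrin-repeat gene known as a HIF target, had 10.3 and 7.78 CPM in cGVHD, against 4.2 and 4.66 CPM in GVHD-free cells (1.02 ± 0.24, adjusted p = 0.0024). Mxi1, which competes with Myc for its partner Max, rose by 0.36 ± 0.10, and Bnip3l, a mitophagy receptor, by 0.32 ± 0.08. Without cGVHD replicate 1 the calls of Ankrd37 (0.82, adjusted p = 0.05) and Mxi1 (0.32, adjusted p = 0.067) were lost. The 15 genes that did not pass the test had log2 differences of −0.51 to 0.57.

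**Figure D2:**
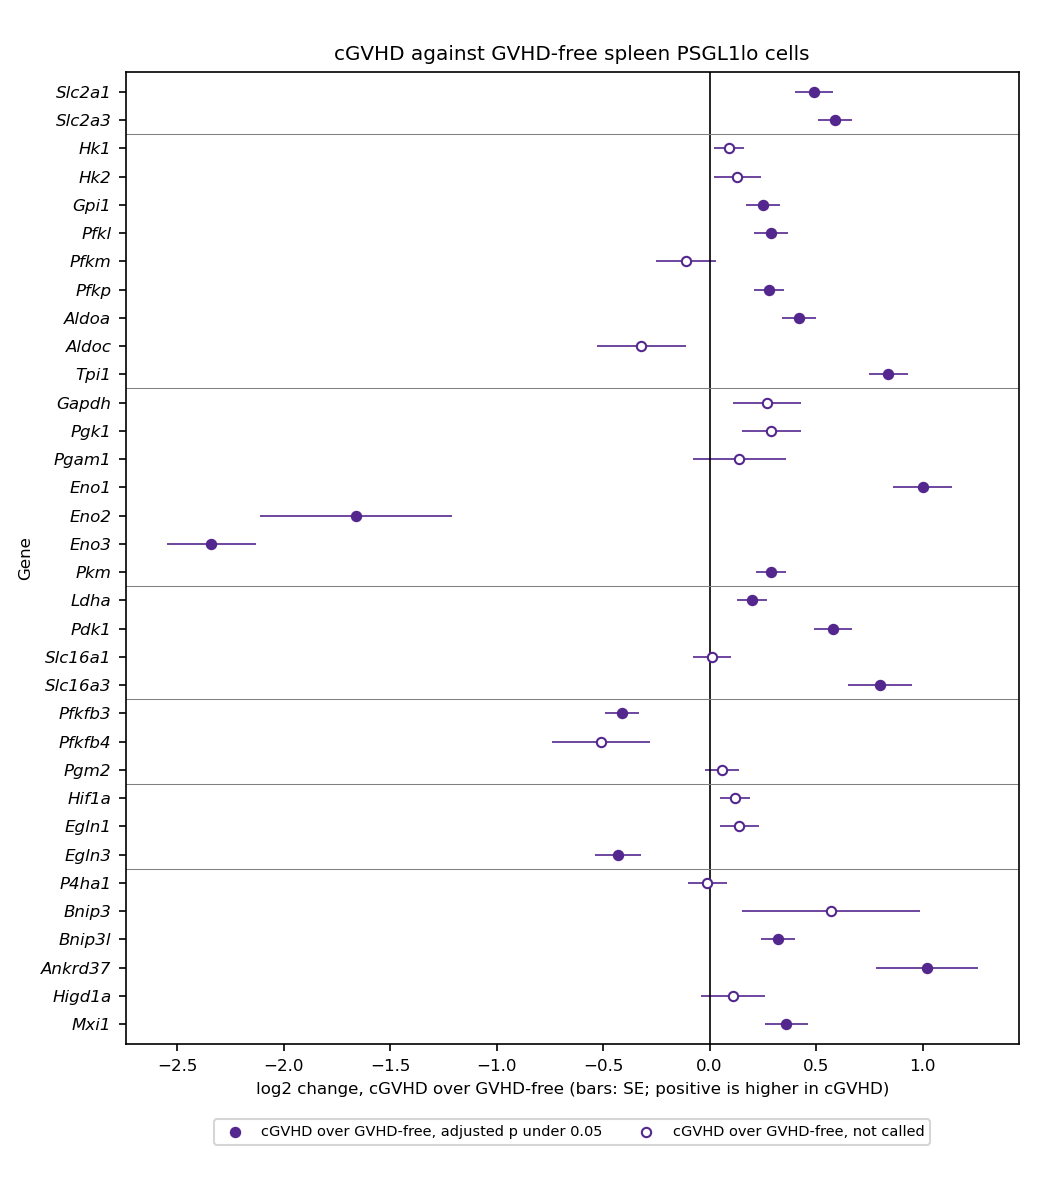
Log2 change of each of the 34 genes in spleen PSGL1lo cells, cGVHD over GVHD-free, with its SE (2 libraries per group), where filled points have an adjusted p under 0.05. Tpi1, Eno1, Slc16a3 and Ankrd37 lie farthest to the right at 0.80 to 1.02, and Eno2 and Eno3 farthest to the left at −1.66 and −2.34.

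Lists of related genes put these changes in context. Of 42 other glycolysis and pyruvate genes tested, 6 rose and 3 fell, and of 45 other hypoxia and HIF genes, 16 rose and 6 fell. The shares of the glycolysis list, 14.3% and 7.14%, were no higher than the 14.7% and 12.8% of all genes. Those of the hypoxia list were 35.6% and 13.3%, with the rises above the share of all genes and the falls close to it. The hypoxia group included Epas1, which encodes HIF-2 alpha and had 118 and 111 CPM in cGVHD, against 20.2 and 21.3 CPM in GVHD-free cells (log2 change 2.46 ± 0.09, adjusted p = 1.2e-14). Hif3a rose by 3.52 ± 0.69 with low counts, at 4.25 and 2.74 CPM in cGVHD, against 0.183 and 0.43 CPM in GVHD-free cells. Rbpj, the Notch pathway transcription factor, rose by 2.08 ± 0.11. Hk3, a hexokinase known from myeloid cells, rose by 1.17 ± 0.35, and the transporter Slc2a8 rose by 0.97 ± 0.15. Pdk4 had 0.447 and 0.327 CPM in cGVHD and was at 0 in both GVHD-free libraries.

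The pentose phosphate list had 1 gene higher, Tktl1 (1.49 ± 0.38), and 1 lower, Prps2 (−0.43 ± 0.09), of 12 tested. Of 35 mTOR, Myc and nutrient regulators tested, 2 rose and 6 fell, with Sesn1 at −0.81 ± 0.10, Foxo1 at −0.75 ± 0.10 and Myc at −0.46 ± 0.14. Of 16 proliferation genes, 4 rose, among them Ccnb2 (0.66 ± 0.13), Mki67 (0.56 ± 0.07) and Top2a (0.40 ± 0.09), and their summed level was 1920 to 1970 CPM in cGVHD and 1580 to 1590 CPM in GVHD-free cells. Markers of other cells moved as well. The 7 tested B and plasma cell markers all fell, with summed levels of 19.6 to 21.2 CPM in cGVHD and 74.7 to 75.6 CPM in GVHD-free cells, and the 5 tested erythroid markers all rose (69.2 to 72 CPM, against 27.2 to 31.8 CPM). Of 13 myeloid markers 4 rose and 2 fell, with sums of 182 to 194 CPM in cGVHD and 126 to 133 CPM in GVHD-free cells. The part of these cells in the gene changes was not tested.

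In cGVHD mice, 5 of the 34 genes were lower in PSGL1lo than in PSGL1hi cells of lung, liver and spleen alike. They are the glucose transporter Slc2a3, the hexokinase Hk2, the lactate dehydrogenase Ldha and the lactate transporters Slc16a1 and Slc16a3. A further 3 rose in all 3 organs (Egln3, Eno2 and Pfkfb4). Over all genes tested, 861 were lower and 519 higher in PSGL1lo in all 3 tissues. In lung, 4 of the 34 genes rose and 15 fell, where 12.9% of all genes were called higher and 20.1% lower. In liver, 6 rose and 5 fell (8.50% and 12.3% of all genes). In spleen, 7 rose and 11 fell (15.8% and 16.7% of all genes). The share of the 34 genes that fell was 44.1% in lung, 14.7% in liver and 32.4% in spleen. Only the liver share lay close to its background. For genes that rose, the shares were 11.8%, 17.6% and 20.6% in the same order. Median log2 changes were −0.19 in lung, −0.08 in liver and −0.08 in spleen, where all genes had −0.03, −0.02 and 0.00. Each of these comparisons lies within one organ and one library series.

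Slc2a3 fell in every organ. It had 107 and 105 CPM in PSGL1lo, against 253 and 230 CPM in PSGL1hi cells of lung (log2 change −1.19 ± 0.07, adjusted p = 5.7e-11). In liver it had 127 and 129 CPM in PSGL1lo, against 208 and 217 CPM in PSGL1hi cells (−0.73 ± 0.07, adjusted p = 1.4e-07), and in spleen 139 and 136 CPM, against 245 and 233 CPM (−0.80 ± 0.07, adjusted p = 3.3e-08). Its PSGL1hi libraries were above 200 CPM and its PSGL1lo libraries below 140 CPM in all 3 organs. Slc2a1, the other transporter, had 42.6 and 48.6 CPM in PSGL1lo, against 71.3 and 77.0 CPM in PSGL1hi cells of lung (−0.70 ± 0.09, adjusted p = 3.1e-06). It did not pass the test in liver, where both fractions lay between 49.7 and 55.5 CPM (−0.08 ± 0.09, adjusted p = 0.61), or in spleen, at 79.3 and 70.4 CPM in PSGL1lo, against 88.0 and 86.1 CPM in PSGL1hi cells (−0.22 ± 0.09, adjusted p = 0.071).

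Hk2 was the upper glycolysis enzyme with the widest gap between the fractions. In lung it had 26.6 and 24.9 CPM in PSGL1lo, against 66.3 and 63.1 CPM in PSGL1hi cells (−1.33 ± 0.11, adjusted p = 2.7e-09). In liver it had 17.2 and 21.4 CPM in PSGL1lo, against 27.0 and 30.6 CPM in PSGL1hi cells (−0.59 ± 0.11, adjusted p = 0.0004). In spleen it had 34.3 and 31.8 CPM, against 50.1 and 46.8 CPM (−0.55 ± 0.11, adjusted p = 0.00044). No PSGL1lo library reached a PSGL1hi library of its organ. Such a lack of overlap was common, at 26 of the 34 genes in lung, 22 in liver and 28 in spleen. Of these genes, 7, 11 and 10 were not called.

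The phosphofructokinase isoforms, which catalyse the committed step, parted. Pfkm, the isoform known from muscle, had 17.6 and 16.9 CPM in PSGL1lo, against 8.52 and 7.17 CPM in PSGL1hi cells of lung (1.14 ± 0.13, adjusted p = 8.2e-07). In liver Pfkm had 23.4 and 22.4 CPM, against 17.3 and 17.6 CPM (0.39 ± 0.12, adjusted p = 0.026), a call lost without liver PSGL1lo replicate 1 (adjusted p = 0.11), PSGL1hi replicate 1 (adjusted p = 0.15) or PSGL1hi replicate 2 (adjusted p = 0.13). In spleen it did not pass the test (0.13 ± 0.13, adjusted p = 0.52). Pfkp, known from platelets, fell in lung (−0.42 ± 0.07) and spleen (−0.35 ± 0.07), and Pfkl was called in none of the 3 organs. In lung the libraries of PSGL1lo cells thus held more Pfkm and less Pfkp transcript than those of PSGL1hi cells. Tpi1 and Aldoa fell in spleen alone among the called results, by 0.50 ± 0.08 and 0.23 ± 0.08 on the log2 scale, and had differences of −0.12 to 0.05 in lung and liver. The Aldoa call was lost without spleen PSGL1lo replicate 2 (adjusted p = 0.22), PSGL1hi replicate 1 (adjusted p = 0.071) or PSGL1hi replicate 2 (adjusted p = 0.064).

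Of the 7 genes of lower glycolysis, Pgk1 and Eno1 fell in lung, by 0.78 ± 0.14 and 0.57 ± 0.13, and Pgk1 and Pkm fell in spleen, by 0.37 ± 0.14 and 0.38 ± 0.07. The spleen call of Pgk1 was lost with DESeq2 (adjusted p = 0.092) and without spleen PSGL1lo replicate 2 (adjusted p = 0.28) or PSGL1hi replicate 1 (adjusted p = 0.23). Eno2 rose in each organ from low counts of 5 to 50 per library. It had 1.99 and 2.14 CPM in PSGL1lo, against 0.562 and 0.313 CPM in PSGL1hi cells of lung (2.24 ± 0.47, adjusted p = 0.00076), and 1.06 and 0.969 CPM, against 0.225 and 0.363 CPM in liver (1.75 ± 0.51, adjusted p = 0.018). The liver call was lost without liver PSGL1lo replicate 1 (adjusted p = 0.069), PSGL1hi replicate 1 (adjusted p = 0.17) or PSGL1hi replicate 2 (adjusted p = 0.065). In spleen it had 0.894 and 1.11 CPM, against 0.234 and 0.475 CPM (1.48 ± 0.55, adjusted p = 0.043), a call lost with DESeq2 (adjusted p = 0.068) and without any one of the 4 spleen libraries. Without spleen PSGL1hi replicate 2 its log2 change was 2.07 (adjusted p = 0.054).

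The Gapdh row went against Pgk1 and Ldha. In spleen it had 13.9 and 13.9 CPM in PSGL1lo, against 7.44 and 6.96 CPM in PSGL1hi cells (0.95 ± 0.16, adjusted p = 0.0001). Liver levels were 17.2 and 19.0 CPM, against 11.9 and 14.3 CPM (0.46 ± 0.14, adjusted p = 0.025), a call lost without liver PSGL1lo replicate 2 (adjusted p = 0.088) or liver PSGL1hi replicate 1 (adjusted p = 0.28). In lung it had 7.97 and 10.4 CPM, against 11.1 and 11.1 CPM, and did not pass the test (−0.27 ± 0.15, adjusted p = 0.19). Gapdh is the enzyme often used as a constant reference in expression work, and its row is the one with the most near-identical pseudogenes here.

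Transcripts for lactate production and transport fell in every organ. Ldha had 409 and 438 CPM in PSGL1lo, against 562 and 599 CPM in PSGL1hi cells of lung (−0.45 ± 0.07, adjusted p = 5.1e-05), and 432 and 466 CPM, against 665 and 650 CPM in spleen (−0.55 ± 0.07, adjusted p = 6.4e-06). Liver levels were 474 and 406 CPM, against 545 and 525 CPM (−0.28 ± 0.07, adjusted p = 0.0088), a call lost with liver libraries alone in the fit (adjusted p = 0.078), and without liver PSGL1lo replicate 2 (adjusted p = 0.08) or PSGL1hi replicate 1 (adjusted p = 0.092). Slc16a3 had 5.81 and 6.56 CPM in PSGL1lo, against 13.7 and 11.6 CPM in PSGL1hi cells of lung (−1.03 ± 0.16, adjusted p = 2.4e-05). For this exporter the liver libraries gave 8.50 and 8.04 CPM in PSGL1lo, against 12.6 and 12.7 CPM in PSGL1hi cells (−0.61 ± 0.15, adjusted p = 0.005), and the spleen libraries 24.7 and 20.5 CPM, against 42.5 and 36.2 CPM (−0.80 ± 0.14, adjusted p = 0.00012). Slc16a1, the monocarboxylate transporter MCT1, which carries lactate in either direction, fell by 0.54 ± 0.09 in lung, 0.52 ± 0.09 in liver and 0.37 ± 0.09 in spleen, the last being lost without spleen PSGL1lo replicate 1 (adjusted p = 0.064). In liver it had 38.8 and 45.7 CPM in PSGL1lo, against 61.5 and 59.3 CPM in PSGL1hi cells (adjusted p = 0.00024). Pdk1 was called in none of the 3 organs, with differences of 0.01 to 0.19.

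**Figure D3:**
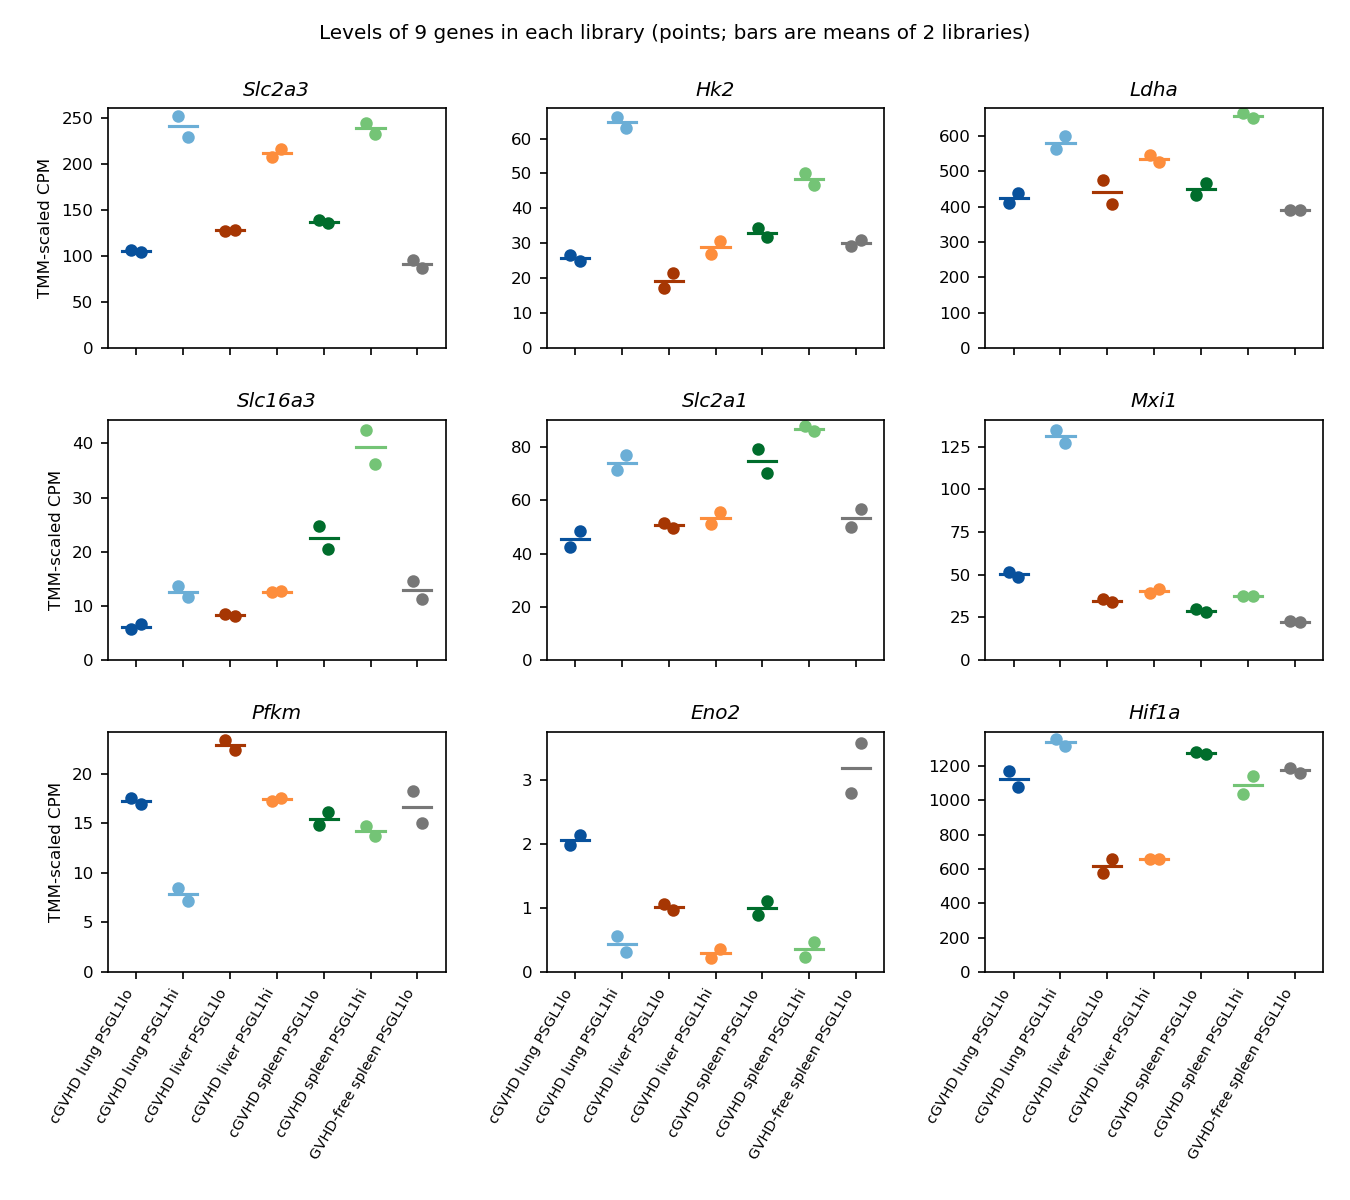
TMM-scaled CPM of 9 genes in each of the 14 libraries (points), with bars at the mean of the 2 libraries of a group and axes from 0. Slc2a3, Hk2, Ldha and Slc16a3 are lower in PSGL1lo than in PSGL1hi cells of every organ, Mxi1 stands highest in lung PSGL1hi cells at 135 and 127 CPM, and Hif1a is lowest in liver.

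The regulators of flux differed between the paired enzymes Pfkfb3 and Pfkfb4, which set the level of the same phosphofructokinase activator. Pfkfb4 had 7.97 and 8.35 CPM in PSGL1lo, against 2.64 and 4.27 CPM in PSGL1hi cells of lung (1.23 ± 0.24, adjusted p = 0.00034). In liver it had 9.51 and 6.40 CPM, against 3.82 and 4.06 CPM (1.02 ± 0.23, adjusted p = 0.0028), a call lost without liver PSGL1lo replicate 1 (adjusted p = 0.073). In spleen it had 8.57 and 7.19 CPM, against 3.18 and 4.45 CPM (1.04 ± 0.25, adjusted p = 0.0025). Pfkfb4 thus stood higher in PSGL1lo cells of all 3 organs, with no overlap. Pfkfb3 fell in lung (−0.27 ± 0.07, adjusted p = 0.0073) and rose in spleen (0.21 ± 0.08, adjusted p = 0.047), a call lost with spleen libraries alone in the fit (adjusted p = 0.089). Its lung call was lost without lung PSGL1lo replicate 2 (adjusted p = 0.19), and its spleen call without spleen PSGL1lo replicate 1 (adjusted p = 0.28), PSGL1lo replicate 2 (adjusted p = 0.069) or PSGL1hi replicate 2 (adjusted p = 0.3). Pgm2 rose in liver by 0.22 ± 0.08 (adjusted p = 0.046), a call lost with liver libraries alone in the fit (adjusted p = 0.077) and without liver PSGL1lo replicate 1 (adjusted p = 0.23), PSGL1hi replicate 1 (adjusted p = 0.14) or PSGL1hi replicate 2 (adjusted p = 0.28). The symbol Pgm2 has been used for 2 phosphoglucomutase genes, and the file does not say which is meant.

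Among the HIF genes, Hif1a changed sign between organs. It had 1170 and 1080 CPM in PSGL1lo, against 1360 and 1320 CPM in PSGL1hi cells of lung (−0.25 ± 0.07, adjusted p = 0.0075). The liver libraries had 576 and 661 CPM, against 661 and 661 CPM (−0.10 ± 0.07, adjusted p = 0.38), and in spleen 1280 and 1270 CPM, against 1040 and 1140 CPM (0.22 ± 0.07, adjusted p = 0.019). The lung call was lost without lung PSGL1lo replicate 2 (adjusted p = 0.21) or lung PSGL1hi replicate 1 (adjusted p = 0.053). The spleen call was lost without spleen PSGL1lo replicate 1 (adjusted p = 0.09), spleen PSGL1lo replicate 2 (adjusted p = 0.085) or spleen PSGL1hi replicate 1 (adjusted p = 0.16). Egln3 rose in each organ, by 0.30 ± 0.10 in lung, 0.41 ± 0.10 in liver and 0.51 ± 0.11 in spleen. The lung call was lost without lung PSGL1lo replicate 1 (adjusted p = 0.13), lung PSGL1hi replicate 1 (adjusted p = 0.059) or lung PSGL1hi replicate 2 (adjusted p = 0.21), and the liver call without liver PSGL1hi replicate 2 (adjusted p = 0.064). Egln1, the main oxygen-sensing hydroxylase PHD2, fell in lung by 0.22 ± 0.08 (adjusted p = 0.049), a call lost with DESeq2 (adjusted p = 0.063) and without any one of the 4 lung libraries (adjusted p = 0.052 to 0.47).

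Mxi1 had the lowest adjusted p of the 34 genes between lung fractions. It had 51.6 and 48.9 CPM in PSGL1lo, against 135 and 127 CPM in PSGL1hi cells of lung (−1.38 ± 0.08, adjusted p = 3.1e-11). It fell by 0.38 ± 0.09 in spleen (adjusted p = 0.0027) and did not pass the test in liver (−0.21 ± 0.08, adjusted p = 0.086). P4ha1, a subunit of the enzyme that hydroxylates collagen, fell in lung by 0.55 ± 0.09 (adjusted p = 8.2e-05). Ankrd37 fell in lung by 0.91 ± 0.26 (adjusted p = 0.01), a call lost without lung PSGL1lo replicate 1 (adjusted p = 0.12) or lung PSGL1hi replicate 2 (adjusted p = 0.17). Bnip3l rose in spleen by 0.27 ± 0.08 (adjusted p = 0.0087), and this call did not hold without spleen PSGL1lo replicate 2 (adjusted p = 0.059) or PSGL1hi replicate 1 (adjusted p = 0.11). A further 5 genes were called neither between fractions nor between cGVHD and GVHD-free cells: Hk1, Aldoc, Pgam1, Higd1a, a mitochondrial hypoxia gene, and Bnip3, a mitophagy receptor with a liver difference of −1.21 ± 0.47 (adjusted p = 0.077).

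**Figure D4:**
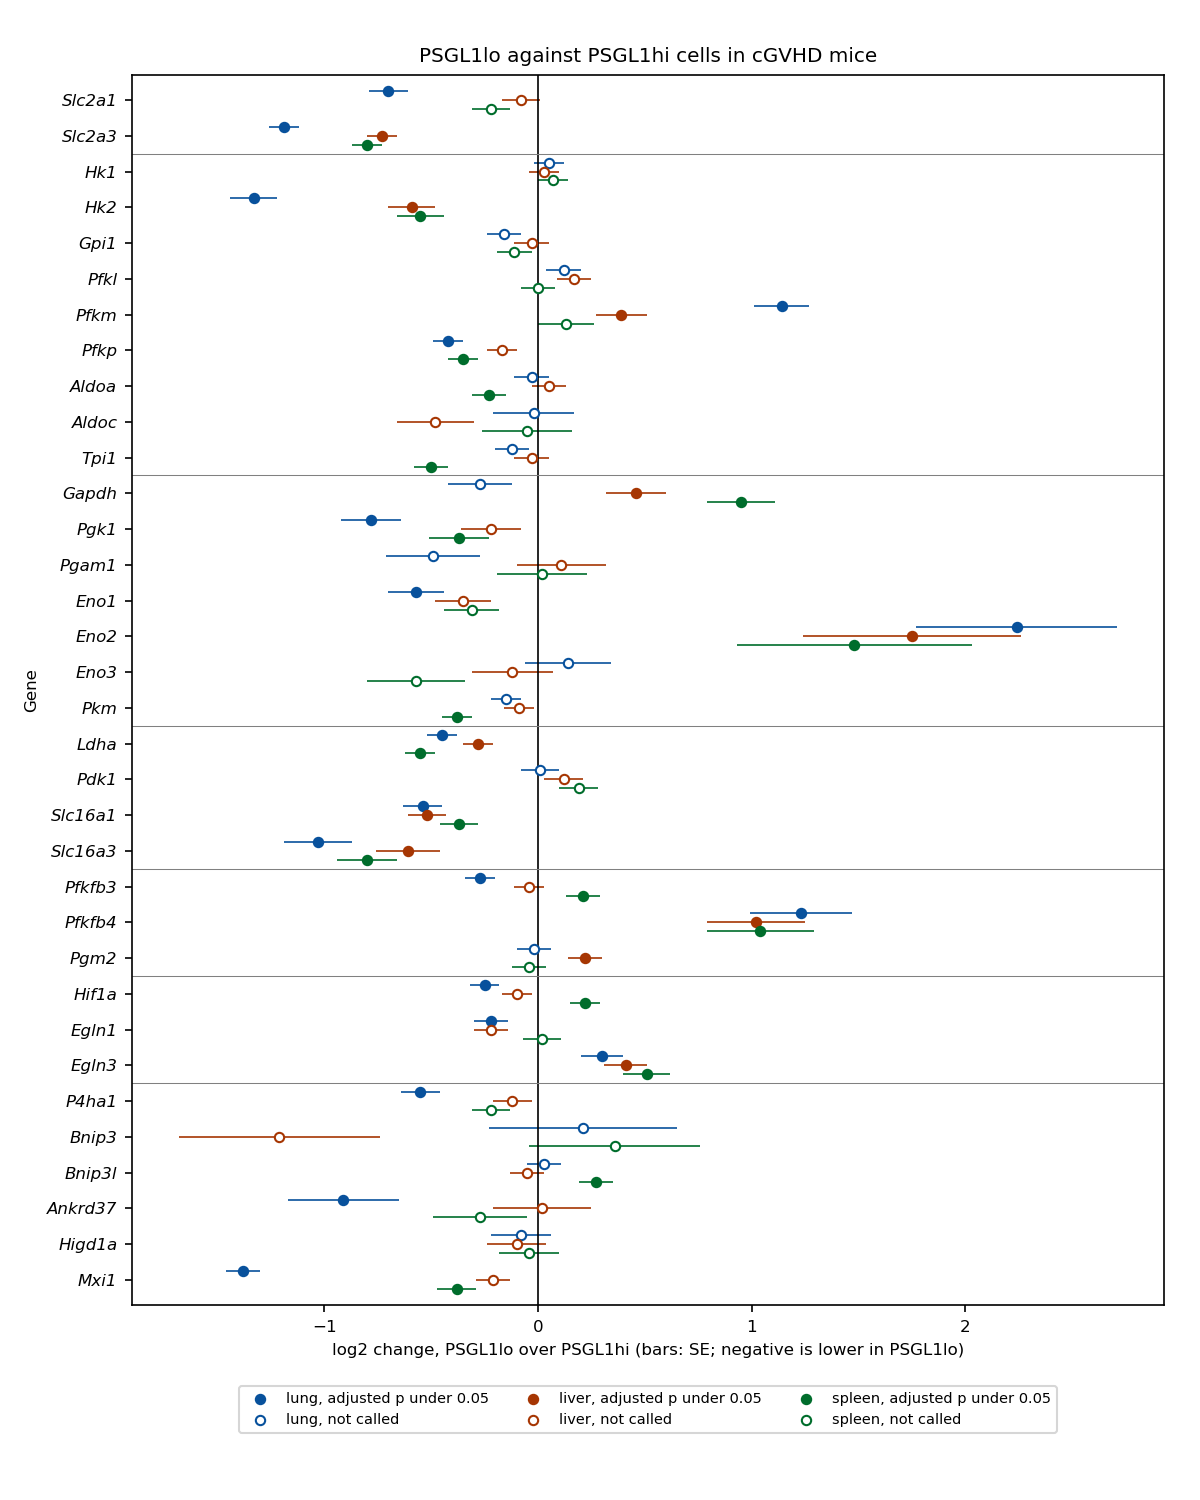
Log2 change of each of the 34 genes, PSGL1lo over PSGL1hi, with its SE in lung, liver and spleen of cGVHD mice (2 libraries per group), where filled points have an adjusted p under 0.05. Slc2a3, Hk2, Ldha, Slc16a1 and Slc16a3 lie left of 0 in all 3 organs, Eno2, Pfkfb4 and Egln3 right of 0, and the lung points of Mxi1 and Hk2 lie farthest left at −1.38 and −1.33.

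Whether the gap between PSGL1lo and PSGL1hi cells differed between organs was tested directly, as a difference of the 2 log2 changes. Lung against spleen gave 2 genes with a positive and 7 with a negative difference (5.51% and 11.1% of all genes). Lung against liver gave 1 and 5 (2.08% and 3.89% of all genes). Liver against spleen gave 1 positive, Tpi1, at 0.47 ± 0.12 (adjusted p = 0.019), and 0 negative by edgeR's test, where 5 had an unadjusted p under 0.05 and DESeq2 called 2 (2.64% and 4.2% of all genes). The Tpi1 call was lost with only the compared groups in the fit (adjusted p = 0.05 after rounding) and without any one of 6 of the 8 compared libraries (adjusted p = 0.061 to 0.1), all but spleen PSGL1hi replicate 1 and liver PSGL1lo replicate 2.

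The lung gap was more negative for Mxi1, at −1.01 ± 0.12 log2 units against spleen (adjusted p = 5.9e-06) and −1.17 ± 0.12 against liver (adjusted p = 1.7e-06). For Hk2 the differences were −0.78 ± 0.15 against spleen (adjusted p = 0.001) and −0.74 ± 0.15 against liver (adjusted p = 0.0037). For Slc2a1 the difference was −0.63 ± 0.13 against liver (adjusted p = 0.0038). Pfkm ran the other way, at 1.01 ± 0.19 against spleen (adjusted p = 0.00077) and 0.74 ± 0.18 against liver (adjusted p = 0.015), the liver difference being lost without liver PSGL1hi replicate 1 (adjusted p = 0.056), liver PSGL1hi replicate 2 (adjusted p = 0.068), lung PSGL1lo replicate 1 (adjusted p = 0.059) or lung PSGL1hi replicate 2 (adjusted p = 0.11). Gapdh gave −1.22 ± 0.22 against spleen (adjusted p = 0.00058) and −0.74 ± 0.21 against liver (adjusted p = 0.039), where the difference from liver was lost with DESeq2 (adjusted p = 0.064) and without liver PSGL1lo replicate 2 (adjusted p = 0.065), liver PSGL1hi replicate 1 (adjusted p = 0.22), lung PSGL1lo replicate 1 (adjusted p = 0.21), lung PSGL1hi replicate 1 (adjusted p = 0.1) or lung PSGL1hi replicate 2 (adjusted p = 0.11). The lung fractions thus differed more than the spleen and liver fractions in Hk2, Mxi1 and Pfkm, each in its own direction.

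Some other metabolic genes also differed between the fractions. Of 42 other glycolysis and pyruvate genes tested, 5 rose and 12 fell in lung, 4 and 6 in liver, and 4 and 13 in spleen. The shares that fell were 28.6% in lung and 31% in spleen, above the 20.1% and 16.7% of all genes. In liver 14.3% fell, close to the 12.3% of all genes. The shares that rose were 11.9%, 9.52% and 9.52% in lung, liver and spleen, against 12.9%, 8.50% and 15.8% of all genes. Slc2a6, a transporter, rose by 1.39 ± 0.20 in lung, 1.19 ± 0.21 in liver and 0.65 ± 0.19 in spleen, opposite to Slc2a3. Ldhb, the lactate dehydrogenase subunit that favours pyruvate, rose by 1.16 ± 0.15 in lung, 0.87 ± 0.15 in liver and 0.88 ± 0.17 in spleen, opposite to Ldha. Pdk2 rose in lung (1.25 ± 0.20) and liver (0.67 ± 0.19), and its spleen difference did not pass the test (0.60 ± 0.30). Pgm2l1 fell in lung (−1.35 ± 0.09), liver (−0.56 ± 0.10) and spleen (−0.59 ± 0.10), as did Gpd2, the mitochondrial glycerol phosphate dehydrogenase (−0.76 ± 0.09, −0.89 ± 0.09 and −0.75 ± 0.09). Hk3 fell in spleen (−1.01 ± 0.30) and did not pass the test in lung (0.49 ± 0.33) or liver (−0.23 ± 0.44).

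Of 45 other hypoxia and HIF genes, 7 rose and 15 fell in lung, 3 and 7 in liver, and 8 and 9 in spleen. In the same order, 33.3%, 15.6% and 20% fell, against 20.1%, 12.3% and 16.7% of all genes. The shares that rose were 15.6%, 6.67% and 17.8%, against 12.9%, 8.50% and 15.8% of all genes. Ndrg1, a classic hypoxia-inducible gene, had 30.8 and 35.9 CPM in PSGL1lo, against 83.7 and 80.2 CPM in PSGL1hi cells of lung (−1.30 ± 0.11, adjusted p = 1.2e-08), and fell by 1.20 ± 0.13 in liver and 0.61 ± 0.14 in spleen. Errfi1 fell in lung (−1.01 ± 0.12), liver (−1.07 ± 0.13) and spleen (−0.63 ± 0.12). Car12, a carbonic anhydrase, fell in lung (−1.40 ± 0.38) and spleen (−1.47 ± 0.34) and did not pass the test in liver (−0.57 ± 0.31). Hmox1, haem oxygenase, rose in lung (0.35 ± 0.12, adjusted p = 0.031), fell in spleen (−0.89 ± 0.11) and did not pass the test in liver (0.16 ± 0.13). Hif3a, which encodes a HIF family member, rose in lung (2.14 ± 0.53) with 4.88 and 1.34 CPM in PSGL1lo, against 1.12 and 0.313 CPM in PSGL1hi cells, and in liver (1.54 ± 0.47), and did not pass the test in spleen (0.94 ± 0.49). Loxl2 was at 0 in both spleen PSGL1lo libraries and had 0.608 and 0.216 CPM in spleen PSGL1hi cells.

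Among 12 pentose phosphate genes, 2 fell in lung, 2 in liver and 4 in spleen, and Tkt, transketolase, was one of them in each organ (−0.40 ± 0.07, −0.23 ± 0.07 and −0.69 ± 0.07). Prps1 fell in lung (−0.31 ± 0.08), Prps2 in liver (−0.32 ± 0.09) and Taldo1 in spleen (−0.45 ± 0.09), where Pgd rose (0.37 ± 0.09). Of 35 mTOR, Myc and nutrient regulators, 5 rose and 14 fell in lung, 5 and 6 in liver, and 13 and 4 in spleen. Myc, which drives glycolytic and growth genes, had 44.2 and 55.2 CPM in PSGL1lo, against 97 and 104 CPM in PSGL1hi cells of lung (−1.02 ± 0.11, adjusted p = 1.3e-07), and fell by 0.74 ± 0.10 in liver and 0.45 ± 0.13 in spleen. Slc7a5, the large amino acid transporter, fell by 1.02 ± 0.09 in lung, 0.69 ± 0.09 in liver and 0.28 ± 0.09 in spleen. Arrdc4, known to limit glucose uptake, rose by 1.48 ± 0.16 in lung, 1.26 ± 0.17 in liver and 0.89 ± 0.15 in spleen. Sesn3, an inhibitor of mTOR signalling, rose by 0.52 ± 0.07 in lung, 0.49 ± 0.07 in liver and 0.84 ± 0.07 in spleen. Mlxip, a glucose-sensing factor, rose by 0.65 ± 0.09 in spleen and did not pass the test in lung (−0.19 ± 0.09) or liver (0.04 ± 0.09).

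Cell cycle genes moved beside the glycolytic ones. Of 16 proliferation genes, 15 fell in lung, 15 in liver and 16 in spleen, with medians of −1.27, −0.53 and −1.25. Ccna2, for example, fell by 1.96 ± 0.13 in lung, 0.98 ± 0.12 in liver and 1.54 ± 0.12 in spleen. Their summed level was 683 to 736 CPM in PSGL1lo and 1490 to 1790 CPM in PSGL1hi cells of lung, 1150 to 1180 and 1710 to 1780 CPM in liver, and 1920 to 1970 and 4180 to 4410 CPM in spleen. CD8 markers fell in each organ (2 of 2), with sums of 12.1 to 12.4 CPM in PSGL1lo and 28.5 to 30.6 CPM in PSGL1hi cells of lung, 28 to 31.5 and 141 to 142 CPM in liver, and 11.8 to 12.3 and 77.5 to 77.6 CPM in spleen. Of 3 tested NK markers, 3 fell in lung, 2 in liver and 2 in spleen. Of 13 myeloid markers, 1 rose in lung, 1 fell in liver and 6 fell in spleen, where the sums were 182 to 194 CPM in PSGL1lo and 378 to 406 CPM in PSGL1hi cells. In liver, 4 of 6 hepatocyte markers rose (57.5 to 64.2 CPM, against 27.9 to 31.9 CPM). The part of cell division and of these other cells in the differences was not tested.

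Lung and liver belong to the same library series and were compared within each fraction. In PSGL1lo cells, 8 of the 34 genes were higher and 12 lower in lung than in liver (19.6% and 20.4% of all genes). In PSGL1hi cells, 11 were higher and 7 lower (20.1% and 18.3% of all genes). Median log2 differences were −0.15 and −0.02, where all genes had −0.00 in both. In both fractions 7 genes were higher in lung and 6 lower, and 10 were called in neither. The matching shares of all genes over both fractions were not worked out. Slc2a3 was lower in lung PSGL1lo cells (−0.27 ± 0.07, adjusted p = 0.0048) and higher in lung PSGL1hi cells (0.18 ± 0.07, adjusted p = 0.05 after rounding), the second being lost without lung PSGL1hi replicate 1 (adjusted p = 0.45), liver PSGL1hi replicate 1 (adjusted p = 0.27) or liver PSGL1hi replicate 2 (adjusted p = 0.11).

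Hif1a stood out among the genes higher in lung. It had 1170 and 1080 CPM in lung, against 576 and 661 CPM in liver PSGL1lo cells (0.86 ± 0.07, adjusted p = 4e-09), and 1360 and 1320 CPM in lung, against 661 and 661 CPM in liver PSGL1hi cells (1.02 ± 0.07, adjusted p = 2.1e-10). Its hydroxylases ran opposite, with Egln3 at −0.67 ± 0.10 and −0.56 ± 0.10 and Egln1 at −0.40 ± 0.08 in both fractions. Mxi1 (135 and 127 CPM in lung, against 39.0 and 41.5 CPM in liver) and Hk2 (66.3 and 63.1 CPM, against 27.0 and 30.6 CPM) were higher in lung PSGL1hi cells, by 1.70 ± 0.08 and 1.16 ± 0.10. Pfkm was lower there, at 8.52 and 7.17 CPM in lung, against 17.3 and 17.6 CPM in liver (−1.16 ± 0.13). In PSGL1lo cells Ankrd37 (1.48 and 2.14 CPM in lung, against 3.55 and 4.04 CPM in liver) and Gapdh (7.97 and 10.4 CPM, against 17.2 and 19.0 CPM) were lower in lung, by −1.06 ± 0.26 and −0.98 ± 0.15. Bnip3 was higher there, at 0.806 and 1.34 CPM in lung, against 0.372 and 0.548 CPM in liver (1.24 ± 0.48, adjusted p = 0.043), a call lost with DESeq2 (adjusted p = 0.076) and without lung PSGL1lo replicate 2 (adjusted p = 0.3) or liver PSGL1lo replicate 1 (adjusted p = 0.22).

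Not all hypoxia genes followed one direction between lung and liver. Pdk1 was lower in lung in both fractions (−0.60 ± 0.09 and −0.49 ± 0.09), and Ldha was called in neither. Of 45 other hypoxia and HIF genes, 15 were higher and 8 lower in lung PSGL1lo cells, and 17 and 11 in lung PSGL1hi cells. Their median log2 differences were 0.02 and 0.14. In this list Vegfa, the hypoxia-responsive angiogenic factor, had 5.81 and 4.15 CPM in lung, against 0 and 0.0421 CPM in liver PSGL1lo cells. In PSGL1hi cells Vegfa had 4.97 and 2.98 CPM in lung, against 0.0449 and 0.0363 CPM in liver. Markers of myeloid cells summed to 810 to 1230 CPM in lung, against 38.1 to 116 CPM in liver PSGL1lo cells, and to 719 to 897 CPM, against 41.9 to 81.5 CPM in PSGL1hi cells. Of the 13 myeloid markers, 10 were higher and 2 lower in lung in each fraction. Lung epithelial markers summed to 5.68 to 88.6 CPM in lung PSGL1lo and 36.5 to 45.4 CPM in lung PSGL1hi cells, and to at most 0.0363 CPM in liver. All 16 proliferation genes were lower in lung PSGL1lo than in liver PSGL1lo cells (median −1.06), and 7 of 16 were lower in PSGL1hi cells (median −0.25). Both CD8 markers were lower in lung in each fraction, by up to −2.70 in PSGL1lo and −2.90 in PSGL1hi cells. Of 6 hepatocyte markers, 5 were lower and 1 higher in lung PSGL1lo cells, and 4 were lower and 1 higher in lung PSGL1hi cells. Hepatocyte markers summed to 33.1 to 39.9 CPM in lung PSGL1lo, against 57.5 to 64.2 CPM in liver PSGL1lo cells. In PSGL1hi cells these sums overlapped, at 29.4 to 34.1 CPM in lung and 27.9 to 31.9 CPM in liver. The part of cell division and of these other cells in the lung levels was not tested.

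**Figure D5:**
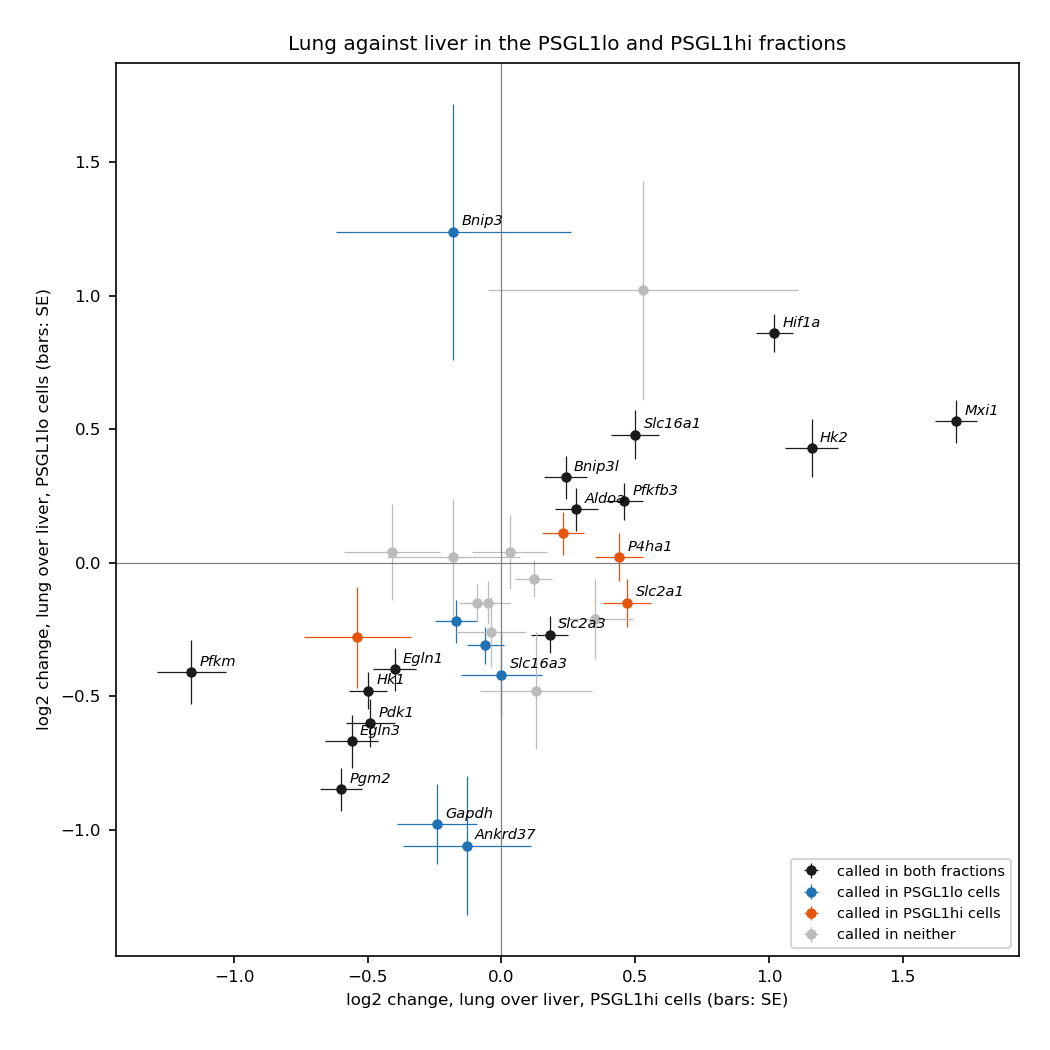
Log2 difference of each of the 34 genes, lung over liver, in PSGL1hi cells (horizontal axis) and PSGL1lo cells (vertical axis), with SE in both directions (2 libraries per group) and colours for the fraction in which the gene was called. Hif1a, Hk2 and Mxi1 lie upper right, Pgm2, Egln3, Pdk1 and Pfkm lower left, and Slc2a3 is called with opposite signs.

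Against spleen, liver and lung cells had lower levels of many of these genes, and organ and library series cannot be told apart in these values. Liver PSGL1lo cells had 11 genes higher and 15 lower (28.7% and 29.0% of all genes), and lung PSGL1lo cells 6 higher and 20 lower (29.6% and 30.4%). Liver PSGL1hi cells had 8 higher and 16 lower (28.5% and 29.4%), and lung PSGL1hi cells 8 higher and 16 lower (30.7% and 31.0%). A set of 11 genes was lower than in spleen in all 4 comparisons, namely Slc2a1, Pfkl, Pfkp, Tpi1, Pgk1, Pkm, Slc16a1, Slc16a3, P4ha1, Ankrd37 and Higd1a, and Gpi1, Pfkfb3 and Egln3 were higher in all 4. These comparisons share their spleen libraries in pairs. The share of all genes called in all 4 was not worked out, so these sets have no background beside them.

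Slc16a3 was among the 4 genes with the widest called differences in each of the 4 comparisons, with −1.44 ± 0.15 in liver PSGL1lo, −1.87 ± 0.16 in lung PSGL1lo, −1.63 ± 0.14 in liver PSGL1hi and −1.64 ± 0.14 in lung PSGL1hi cells. Ankrd37 was as well, at −1.25 ± 0.23, −2.31 ± 0.25, −1.54 ± 0.22 and −1.67 ± 0.23 in the same order. Bnip3 (−2.46 ± 0.46) and Slc16a1 (−1.32 ± 0.09) completed the list in liver PSGL1lo cells, and Pfkl (−1.24 ± 0.08) and Bnip3 (−1.22 ± 0.42) in lung PSGL1lo cells. Tpi1 (−1.36 ± 0.08) and Pfkl (−1.19 ± 0.08) completed it in liver PSGL1hi cells, and Mxi1 (1.80 ± 0.08) and Tpi1 (−1.42 ± 0.08) in lung PSGL1hi cells. The adjusted p of these 16 differences ran from 6.6e-14 for Mxi1 to 0.017 for Bnip3 in lung PSGL1lo cells. Other genes moved in the same comparisons. All 16 proliferation genes were lower than in spleen in lung PSGL1lo and PSGL1hi cells, and 15 of 16 in liver PSGL1lo and PSGL1hi cells. The 5 tested erythroid markers were lower in all 4 comparisons, with summed levels of at most 0.346 CPM in lung and 0.859 to 2.4 CPM in liver, against 69.2 to 79.1 CPM in spleen. Of 13 myeloid markers, 4 were higher and 3 lower in lung PSGL1lo, 4 higher and 6 lower in lung PSGL1hi, 2 higher and 8 lower in liver PSGL1lo, and 10 lower in liver PSGL1hi cells. Of 6 hepatocyte markers, 5 were higher and 1 lower in liver PSGL1lo cells, and 4 were higher and 1 lower in liver PSGL1hi cells. Their sums were 57.5 to 64.2 CPM in liver and 34.3 to 34.5 CPM in spleen PSGL1lo cells. In PSGL1hi cells the order was reversed, at 27.9 to 31.9 CPM in liver and 68 to 75.5 CPM in spleen. The 5 tested lung epithelial markers were higher in both lung fractions. Both CD8 markers were higher in each liver fraction and lower in lung PSGL1hi cells. The part of cell division and of these other cells in the values was not tested.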

How the data were processed

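Bulk RNA of 14 libraries in 7 groups of 2 was analysed, and samples were grouped by the labels alone. The authors deposited whole-number counts per gene, made with TopHat2 2.0.8 and HTSeq on mouse build mm9, per the submitters' processing notes. The labels' protocols name RNeasy extraction and the Kapa mRNA HyperPrep kit, and neither gene annotation nor strand setting is stated. From these counts, R 4.3.3 with edgeR 4.0.16 was used. Low genes were removed with filterByExpr, leaving 13780 genes, and TMM set the library sizes. One quasi-likelihood model took in all 14 libraries, with 7 residual degrees of freedom. Variation between replicates beyond counting noise was 7.35% on edgeR's common estimate, and it may be technical. In all, 13 comparisons were made, each adjusted by Benjamini-Hochberg over all genes tested, with calls at an adjusted p under 0.05. An SE is the size of the log2 change divided by the square root of F. Library totals were 13222005 to 33532595 counts, and replicates of each group differed by more than counting noise (chi-square per degree of freedom 2.7 to 16.3).

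The 34 genes, the related lists and the markers were chosen with earlier results of these data known. Named with values are the 6 called genes with the largest log2 changes in each of the 4 main comparisons, 4 in each other comparison, Hif1a, Slc2a1, Hk2, Ldha and Gapdh in the main ones, and up to 3 called genes per related list (1 such result is not reported here); others named were chosen after their values were seen. Alternatives were RLE size factors, DESeq2 1.42.0, no filter, only the compared groups, a replicate block, edgeR's glmTreat against a 1.5-fold change and each replicate left out. Removing genes with near-identical pseudogene stretches and summing Eno1 with Eno1b were added after seeing the data. Pseudogene matches use GENCODE M21, of another build (GRCm38), for names and sequence likeness only.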

Additional observations from a re-analysis of the deposited data

Results flagged for a closer look

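A total of 16 results were marked because the PSGL1lo change (log2, PSGL1lo over PSGL1hi) differed between 2 organs in edgeR's test of the difference itself. Lung and liver share a library series. Spleen has its own, so organ and series cannot be told apart in the differences from spleen.

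Between lung and liver, the difference (lung minus liver) was −1.17 for Mxi1 (adjusted p = 1.7e-06), −0.74 for Hk2 (adjusted p = 0.0037), −0.63 for Slc2a1 (adjusted p = 0.0038) and −0.46 for Slc2a3 (adjusted p = 0.0076). It was −0.74 for Gapdh (adjusted p = 0.039) and 0.74 for Pfkm (adjusted p = 0.015). The Slc2a3 difference was lost without lung PSGL1hi replicate 1 (adjusted p = 0.065) or liver PSGL1hi replicate 1 (adjusted p = 0.063).

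Between lung and spleen (lung minus spleen), the glucose entry genes gave −0.48 for Slc2a1 (adjusted p = 0.012), −0.39 for Slc2a3 (adjusted p = 0.011) and −0.78 for Hk2 (adjusted p = 0.001). The Slc2a1 difference was lost without any one of 4 libraries (adjusted p = 0.064 to 0.077) and that of Slc2a3 without any one of 3 (adjusted p = 0.079 to 0.096). Among enzymes and flux regulators, Pfkm gave 1.01 (adjusted p = 0.00077), Tpi1 0.38 (adjusted p = 0.032, lost without any one of 5 libraries), Gapdh −1.22 (adjusted p = 0.00058) and Pfkfb3 −0.48 (adjusted p = 0.0037). Hif1a gave −0.48 (adjusted p = 0.002), with a fall in lung and a rise in spleen, and Mxi1 gave −1.01 (adjusted p = 5.9e-06). Between liver and spleen (liver minus spleen), Tpi1 gave 0.47 (adjusted p = 0.019).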

How the results depend on the processing

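Over 4839 values of the 34 genes recomputed under the alternatives, 0 changed sign among called results. These values include those of glmTreat (163 lost a call and 279 did not). That test uses the main fit, so its values could not change sign. DESeq2 lost 14 calls and gained 6, with 2 adjusted p left as NA. Against a 1.5-fold change (glmTreat), the called genes numbered 3 between cGVHD and GVHD-free spleen PSGL1lo cells, and between fractions 7 in lung, 0 in liver (4 at an unadjusted p under 0.05, and 12 by DESeq2 without that minimum) and 1 in spleen. For the differences between organs they numbered 1 (lung minus liver), 2 (lung minus spleen) and 0 (liver minus spleen, 1 at an unadjusted p under 0.05). For lung over liver there were 3 in PSGL1lo and 4 in PSGL1hi cells, and over spleen 9 (lung PSGL1lo), 10 (liver PSGL1lo), 7 (lung PSGL1hi) and 11 (liver PSGL1hi). The single liver minus spleen call became 3 with no filter, 4 with DESeq2, 0 with only the compared groups (8 at an unadjusted p under 0.05) and 0 among genes with no near-identical pseudogene stretch (5 at an unadjusted p under 0.05, and 2 by DESeq2). Among those genes 15 were called for lung over spleen PSGL1hi cells.

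Leaving out 1 replicate gave 13 to 18 called genes for cGVHD over GVHD-free, and between fractions 16 in each lung run, 6 to 10 in liver (lowest without PSGL1hi replicate 1) and 12 to 16 in spleen. It gave 3 to 6 for lung minus liver (lowest without liver PSGL1hi replicate 1), 6 to 10 for lung minus spleen and 0 to 5 for liver minus spleen (highest without liver PSGL1lo replicate 2). Lung over liver gave 15 to 20 in PSGL1lo and 14 to 15 in PSGL1hi cells, and the 4 comparisons with spleen 20 to 26. Of 2176 such values, 166 lost and 19 gained a call.

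Same-numbered replicates of one library series showed no common deviation (correlations over genes of −0.06 to 0.08). With a single difference per group, this cannot show whether they came from the same mice. With a replicate block the called genes numbered 18 for cGVHD over GVHD-free, and 19 in lung, 12 in liver and 15 in spleen between fractions. Eno2, with 5 to 50 counts per library, is the called gene of the main comparisons with the widest SE (0.45 to 0.55).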
